A study of Mus musculus with 32 samples.

Results

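R72 thymocytes between 2 h and 4 h after 5 Gy of gamma radiation were described by setting the 4 arrays of R72 mice at 4 h against the 4 arrays of R72 mice at 2 h, 8 of the 32 arrays in the series. The members were taken by the sample titles, and all genes were compared. R72 and P72 name mice whose p53 carries arginine or proline at the variable residue of the human protein, and the labels give the genotype as R72 with no further allele. All mice were C57Bl/6 and 6 weeks old, irradiated mice received 5 Gy in a cesium irradiator, and each array read thymocyte RNA pooled from 2 mice in 1 of 4 independent experiments. The replicates are therefore separate pools. Untreated R72 mice (0 h, 4 arrays) gave the starting level, and P72 mice at 2 h and 4 h (4 arrays each) gave the matched step in the other genotype. Nothing in the labels names a clone, a driver or a second allele, so the R72 groups differ from each other in time and irradiation only, as far as they say.

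Thymocytes are developing T cells, most of them at the double positive stage, and they die readily after irradiation. DNA breaks activate p53, which switches on genes of cell death such as Bbc3 (PUMA) and Bax, genes of cell cycle arrest such as Cdkn1a (p21), and its own inhibitors such as Mdm2. NF-kB is a family of dimeric factors held in the cytoplasm by IkB proteins, and its targets include chemokines, cytokines and those inhibitors themselves. DNA replication genes are driven by E2F factors at the entry to S phase, and mitosis genes are expressed later, in G2 and M.

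The arrays were measured to unequal depth, which bears on dim genes. The share of probes well above background lay between 52.4% and 71.5% on the 2 h arrays and between 66.7% and 68.8% on the 4 h arrays. Replicate 1 at 2 h had the fewest such probes, and replicate 4 at 2 h had the brightest signal, with a 75th percentile of 1031 against 485.3 to 526.8 on the other 2 h arrays and 334.1 to 435 on the 4 h arrays. Correlations between replicates ran from 0.9745 to 0.9864 at 2 h and from 0.9848 to 0.9905 at 4 h. The pools were labelled as 1 male and 1 female, yet Xist, expressed from the inactive X chromosome, stood at -7.92 to -3.73 in replicates 1 and 3 of the P72 and R72 groups and at 5.11 to 5.83 in replicates 2 and 4, a split that is the same in each of these groups. The 20 measured double positive markers were well above background on all 8 arrays, with a summed level of 1080 to 1400 at 2 h and 1360 to 1440 at 4 h. Levels below are log2 signal minus the array's 75th percentile, and a change is the difference of the means of 4 arrays.

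From 2 h to 4 h, genes of inflammation rose and genes of DNA replication fell, while p53 target genes went both ways. Of the p53 targets up at 2 h in the lists of apoptosis, of arrest and repair, and of metabolism, 11 of 14, 10 of 13 and 5 of 10 were not called after it, beside 67.1% of all genes up at 2 h. Of 20552 genes, 3298 (16.0%) were higher and 1017 (4.95%) lower at 4 h than at 2 h at an adjusted p under 0.05 in limma, 21.0% in all. The rises were larger: 1660 of them reached 2-fold, against 26 of the falls (8.20% of the genes tested in all). The values of the 4 h arrays lay apart from those of the 2 h arrays for 3972 genes (19.3% of those tested), of which 3086 were also called. Rises made up 76.4% of the calls, and this share depended on the scaling: it was 58.2% after quantile normalization, 56.3% in the authors' value table and 19.3% with the array median as the centre, which moved the median change of all genes from 0.074 to -0.287. Among the 14865 genes well above background on all 8 arrays, 1660 rose and 986 fell (62.7% rises), and their median change was -0.008. The counts also turned on single arrays: without replicate 2 at 4 h, 1672 genes rose and 537 fell, and without replicate 4 at 2 h, 2151 rose and 687 fell. Without replicate 3 at 2 h, 2160 genes rose. Slides 5 and 6 each held 1 array of 2 h and 2 of 4 h. Of the genes called without slide 5, 95.1% moved the same way within it, and the share was 91.3% for slide 6.

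Each called gene was set beside its own change in the first 2 h, where 1283 genes rose (6.24%) and 1395 fell (6.79%), 13.0% of those tested. A gene starts where it is called from 2 h to 4 h and was not called from 0 h to 2 h, continues where both steps are called in 1 direction, and reverses where they are called in opposite directions. By this rule 3629 genes started (84.1% of the calls), 535 continued (12.4%) and 151 reversed (3.5%). Both steps use the same 2 h arrays, so an error there moves them in opposite directions, and these counts are a description. Starting genes comprised 2897 that rose and 732 that fell. Their median first steps were 0.23 and -0.04, so a start means a first step that was not called, which can hold a smaller change. Of the 1283 genes up at 2 h, 336 rose again (26.2%), 86 fell back (6.7%) and 861 were not called after 2 h (67.1%). Of the 1395 genes down at 2 h, 199 fell further (14.3%), 65 rose (4.66%) and 1131 were not called.

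**Figure D1:**
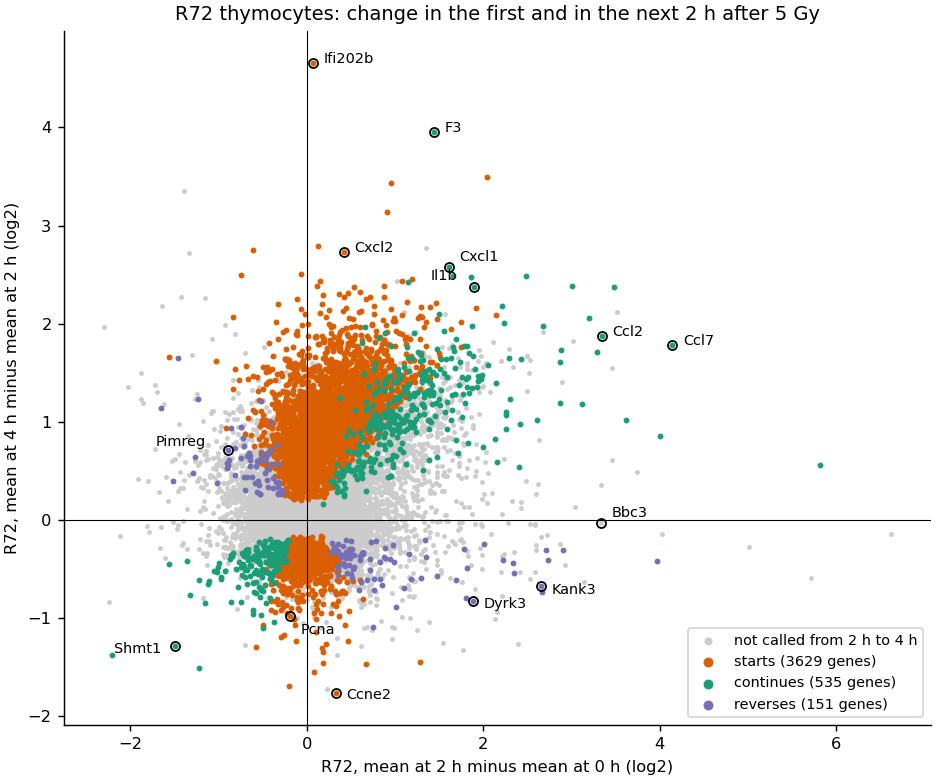
Change from 2 h to 4 h (vertical axis, log2) against the change from 0 h to 2 h (horizontal axis, log2) for each gene in R72 thymocytes, coloured by whether the gene starts (3629 genes), continues (535) or reverses (151) after 2 h. Ifi202b and Cxcl2 lie near 0 on the horizontal axis and rise after 2 h, Ccl2 and Ccl7 rise in both steps, Bbc3 stays near 0 on the vertical axis, and both axes share the 2 h arrays.

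The largest rise was that of Ifi202b, an interferon-inducible gene of the p200 family of DNA-binding proteins, measured by a probe at chr1:173928807-173929836 (mm7). It stood at -5.08, -4.40, -5.42 and -4.62 on the untreated arrays, at -5.55, -4.47, -4.65 and -4.57 at 2 h, and at 0.07, 0.28, -0.78 and -0.19 at 4 h. The 4 h arrays were all far above the 2 h arrays, and the 2 h and untreated values overlapped. The change was 4.66 ± 0.52 (SE), 25.3-fold, with an adjusted p of 1.32e-05 in limma. The p200 family has near-identical copies, and the probe may read more than 1 of them. F3, which encodes tissue factor, the trigger of blood clotting, had the next largest rise of all genes tested. Its probe lies at chr3:121503205-121503264 (mm7). F3 stood at -6.12, -5.91, -5.44 and -4.66 at 2 h and at -1.64, -1.32, -1.91 and -1.46 at 4 h. Its change after 2 h was 3.95 ± 0.39 (15.5-fold), and the earlier step was also called up. The probe was well above background on 0 of 4 untreated arrays, 2 of 4 at 2 h and 4 of 4 at 4 h, so the fold rests on dim 2 h values.

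Other genes that started upward encode metabolic and signalling proteins. Pdk4, a kinase that shuts down pyruvate oxidation, rose from -5.83, -5.38, -4.41 and -5.12 at 2 h to -1.93, -1.74, -1.69 and -1.65 at 4 h. The 4 h values were close to each other and above all 2 h values, and the change was 3.43 ± 0.40. The first step of Pdk4, 0.95 ± 0.40, was not called. Its probe was well above background on 0 of 4 untreated arrays and on 3 of 4 at 2 h. Bcar1, an adaptor of integrin signalling, rose by 2.79 ± 0.35, and Dmbt1, a scavenger receptor family protein, by 2.38 ± 0.42. Bcl3, an atypical IkB protein that acts in the nucleus, stood at 0.70, 0.31, 0.56 and 1.06 at 2 h and at 2.89, 3.01, 2.63 and 2.69 at 4 h. It was the largest rise among the NF-kB subunits and inhibitors (2.15 ± 0.18, adjusted p = 6.9e-07 in limma), from a 2 h level that differed from the untreated one by -0.06 ± 0.18.

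**Figure D2:**
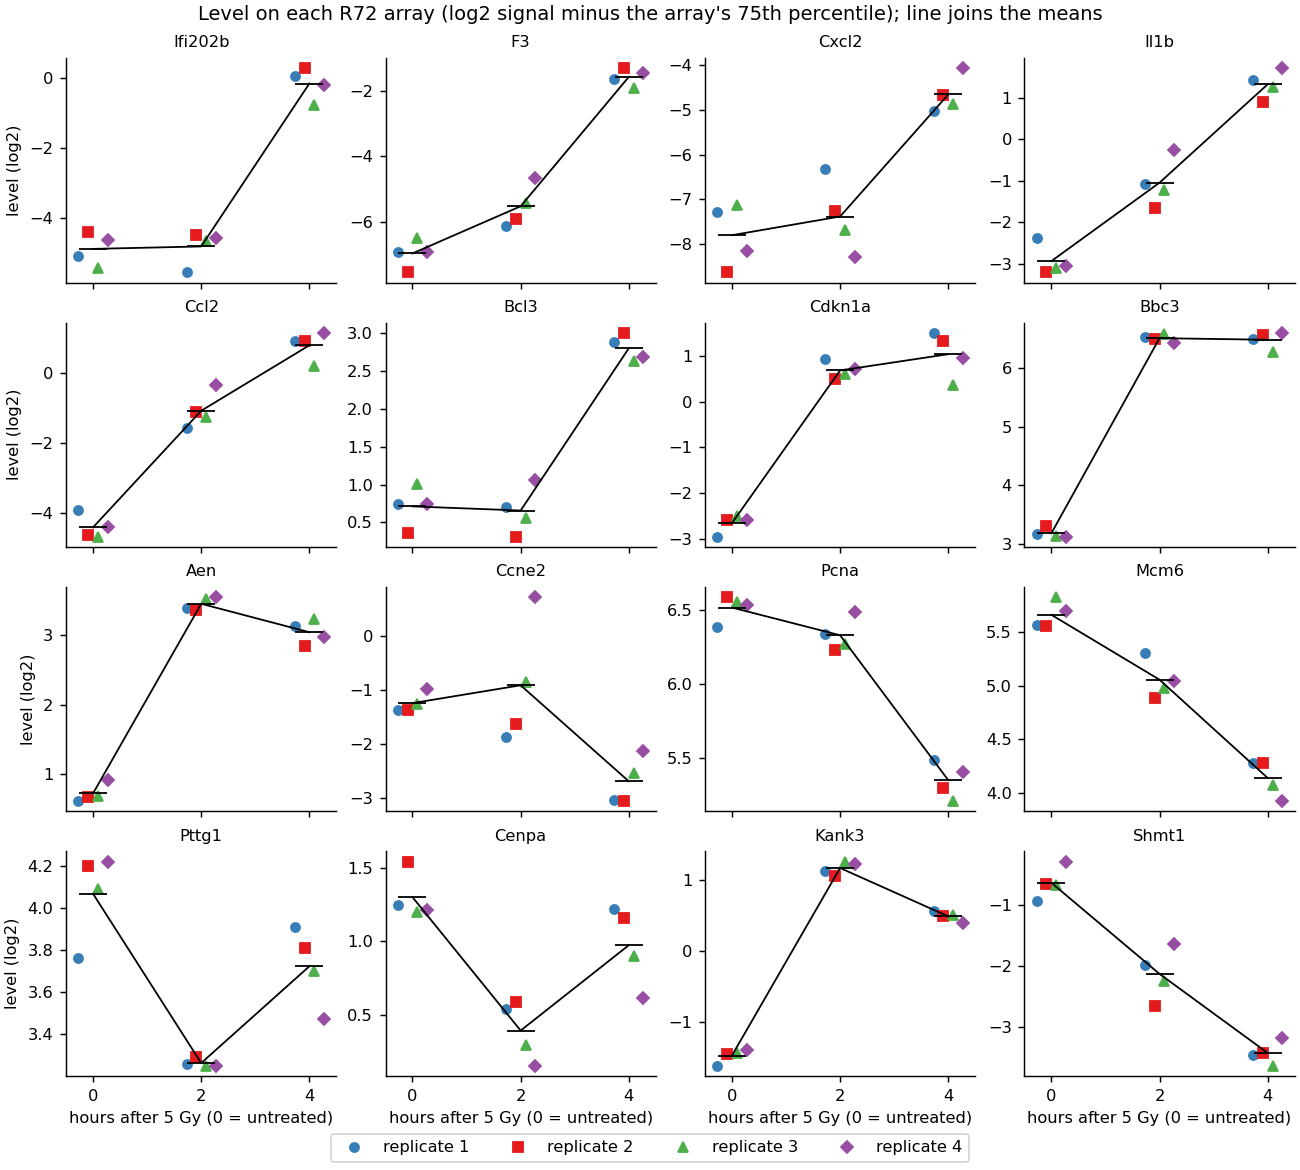
Level of 16 genes on each R72 array at 0, 2 and 4 h (log2 signal minus the array's 75th percentile, a separate vertical scale for each gene), with symbols for the replicates and a line through the means of 4 arrays. The 4 h values of Ifi202b, F3, Il1b and Bcl3 lie above all 2 h values, those of Pcna and Mcm6 lie below them, and those of Cdkn1a and Bbc3 overlap with them.

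Chemokines, the attractants of leukocytes, gave many rises after 2 h. Of 32 measured members of the CC and CXC families, 6 had risen by 2 h, beside 6.24% of all genes. From 2 h to 4 h, 15 rose and 0 fell, against a background of 16.0% rising. The median change of the 32 in this step exceeded that of all genes by 0.71. Ccl2 and Ccl7, which attract monocytes, continued a rise begun before 2 h. Ccl2 stood at -3.91, -4.64, -4.68 and -4.41 untreated, at -1.57, -1.12, -1.26 and -0.34 at 2 h, and at 0.92, 0.92, 0.20 and 1.16 at 4 h. Its first step was 3.34 ± 0.30 and its next 1.87 ± 0.30. Ccl7 rose by 1.78 ± 0.34 after 2 h, and its first step has no exact size, since its probe was well above background on 0 of 4 untreated arrays and on 4 of 4 at 2 h. Ccl3 and Ccl4, the macrophage inflammatory proteins, both continued: Ccl4 rose by 0.66 ± 0.20 in the first step and by 1.97 ± 0.20 in the next, and Ccl3 by 2.87 ± 0.28 and then 1.19 ± 0.28. The Ccl3 probe was well above background on 2 of 4 untreated arrays, so its first step rests on dim untreated values. Cxcl1 and Cxcl2 attract neutrophils through Cxcr2. Cxcl1 rose by 2.58 ± 0.35 after 2 h, from a probe well above background on 0 of 4 untreated arrays and 2 of 4 arrays at 2 h. The Cxcl2 probe, at chr5:90894748-90894807 (mm7), was well above background on 0 of 4 arrays at 2 h and on 4 of 4 at 4 h, where it stood at -5.02, -4.67, -4.86 and -4.07. Its level at 4 h was at least 6.47-fold that at 2 h, with 2 h values below the array's lowest measurable signal raised to it. Ccl24, a ligand of Ccr3 on eosinophils, started after 2 h and rose by 1.51 ± 0.29.

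Cytokines and growth factors followed a similar course. By 2 h, 3 of 22 measured members had risen, beside 6.24% of all genes. After it 15 rose and 0 fell, beside 16.0% rising and 4.95% falling among all genes. With the quantile scaling 9 members rose, and with the array median as centre 8 rose and 1 fell. Il1b, the cytokine interleukin-1 beta, stood at -1.07, -1.64, -1.21 and -0.25 at 2 h and at 1.42, 0.90, 1.27 and 1.71 at 4 h. Its rise of 2.37 ± 0.30 (5.16-fold) followed one of 1.89 ± 0.30. Il1rn, the receptor antagonist that blocks interleukin-1, changed by 0.50 ± 0.24 in the first step, which was not called, and then rose by 1.83 ± 0.24. Hbegf, a ligand of the EGF receptor, rose by 2.47 ± 0.19 after 1.86 ± 0.19. Tnf started late, from -2.17, -2.70, -2.16 and -2.31 at 2 h to -1.37, -1.55, -1.28 and -1.21 at 4 h, a rise of 0.99 ± 0.19. Osm, a cytokine of the interleukin-6 family, rose by 0.94 ± 0.14. Ltb, a subunit of membrane lymphotoxin, reversed: it fell by 0.46 in the first step and rose by 0.63 ± 0.10 in the next, from 5.67 to 6.08 at 2 h to 6.37 to 6.59 at 4 h.

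Promoter sequences are given for the chemokine and cytokine genes with the largest rises among the entries used from the RefSeq promoter table (GRCm38.p6). They are given because these genes rose together. Entries of a chromosome left out beforehand were not used, and genes on it, such as Hbegf, were not counted. Of the 30 called members of these groups, 20 had an entry that was used. Each sequence runs from 250 bases before to 50 bases after the annotated start, 5' to 3' on the gene's strand. Capitals mark matches on either strand to the kB consensus, to the AP-1 motif TGANTCA or to the TATA box TATAAA. For Il1rn, which has 3 starts in the table, the start farthest upstream is shown.
Cxcl2 (chr5:90903649-90903948, plus strand): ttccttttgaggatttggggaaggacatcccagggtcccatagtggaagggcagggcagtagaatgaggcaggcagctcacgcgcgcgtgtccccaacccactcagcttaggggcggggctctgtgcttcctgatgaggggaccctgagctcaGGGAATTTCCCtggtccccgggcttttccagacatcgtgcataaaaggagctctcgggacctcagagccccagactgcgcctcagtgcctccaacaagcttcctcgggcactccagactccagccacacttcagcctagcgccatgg
Cxcl1 (chr5:90890995-90891294, plus strand): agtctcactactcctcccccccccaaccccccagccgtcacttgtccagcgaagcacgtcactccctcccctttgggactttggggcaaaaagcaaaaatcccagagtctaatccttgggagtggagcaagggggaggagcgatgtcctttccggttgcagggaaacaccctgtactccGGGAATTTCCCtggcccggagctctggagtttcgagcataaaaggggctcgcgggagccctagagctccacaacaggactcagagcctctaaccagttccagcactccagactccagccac
Il1b (chr2:129371090-129371389, minus strand): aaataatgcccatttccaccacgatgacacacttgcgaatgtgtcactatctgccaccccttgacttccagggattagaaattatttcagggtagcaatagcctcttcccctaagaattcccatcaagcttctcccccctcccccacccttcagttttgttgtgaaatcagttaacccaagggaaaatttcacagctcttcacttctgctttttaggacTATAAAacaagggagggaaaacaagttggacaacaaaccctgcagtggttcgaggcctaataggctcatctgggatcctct
Il1rn (chr2:24336610-24336909, plus strand): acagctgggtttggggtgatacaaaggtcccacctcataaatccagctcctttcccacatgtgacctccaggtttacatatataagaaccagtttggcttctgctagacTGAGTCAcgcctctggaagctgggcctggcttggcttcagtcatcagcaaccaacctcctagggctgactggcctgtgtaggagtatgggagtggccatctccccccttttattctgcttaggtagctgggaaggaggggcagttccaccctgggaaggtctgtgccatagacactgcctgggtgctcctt
The Cxcl2 and Cxcl1 promoters held the same kB match, beginning 97 and 71 bases before the start, and its reverse complement also matched at an overlapping position. The Il1b promoter held a TATA box 31 bases before its start, and the shown Il1rn promoter an AP-1 match 141 bases before its start. Of the 20 genes with an entry that was used, 7 (35%) held a kB match, 6 (30%) an AP-1 match and 9 (45%) a TATA box. A gene was counted once over its starts. Over all 27025 genes of the table the shares were 9.55%, 8.97% and 15.7%. A match describes letters in the window and was not tested as a binding site.

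Some members of the NF-kB system itself rose after 2 h. The lists here are read beside all genes, of which 16.0% rose and 4.95% fell after 2 h and 6.24% had risen by 2 h. Of 17 measured subunits and inhibitors, 6 rose, 0 fell and 11 were not called, and 2 had risen by 2 h. With the array median as centre 2 rose and 4 fell, and under both normexp settings the list's median lay below that of all genes, so a shift of the whole list does not hold across scalings. Relb and Nfkb2, the subunits of the alternative pathway, rose by 0.80 ± 0.14 and 0.63 ± 0.14. Nfkbia, the IkB protein that ends NF-kB signalling, stood at 5.92, 5.91, 5.97 and 5.78 at 2 h and at 6.19, 6.18, 6.36 and 6.39 at 4 h, a small rise of 0.39 ± 0.10 with all 4 h arrays above all 2 h arrays. Tnip1, an inhibitor that binds ubiquitin, rose by 0.38 ± 0.10. Of 34 measured NF-kB targets in survival, adhesion and signalling, 21 rose and 0 fell, and their median exceeded that of all genes by 0.51. Centred on the array median, 10 of them rose and 2 fell. Plaur, the urokinase receptor, continued upward by 1.26 ± 0.16, and Ier3, an early response gene, rose by 2.10 ± 0.18 after 1.5 ± 0.18. Of 28 measured TNF superfamily ligands and receptors, 11 rose and 0 fell (3 and 4 with the array median as centre), among them Tnfrsf12a, the receptor of TWEAK, by 0.87 ± 0.11.

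Some immediate early genes rose after 2 h and others did not pass the test. Of 32 measured members, 11 had risen by 2 h, beside 6.24% of all genes. After it 14 rose, 0 fell and 18 were not called, beside 16.0% rising and 4.95% falling among all genes. Of the 14, 7 rose in both steps. Centred on the array median, 10 rose and 5 fell. Atf3, a stress-induced factor of the ATF family, stood at -1.18, -1.41, -1.18 and -1.25 at 2 h and at 0.64, 0.45, 0.06 and 0.43 at 4 h, a rise of 1.65 ± 0.21 after 2.29 ± 0.21. The AP-1 subunits Fosl2 and Junb rose by 1.71 ± 0.23 and 0.82 ± 0.09, and Klf6, a zinc finger factor, by 0.66 ± 0.08. Fos changed by 0.51 ± 0.21 after a first step of 1.61 ± 0.21, and that change was not called (adjusted p = 0.0914 in limma). Egr1 was called in neither step, with changes of -0.02 ± 0.11 and -0.11 ± 0.11.

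Pattern sensing and inflammasome genes gave more rises after 2 h than before it, as did all genes (16.0% after and 6.24% before). Of 24 measured sensing genes, 12 rose and 0 fell, 11 of them starting, where 2 had risen by 2 h (6 rose and 3 fell with the array median as centre, and 1 fell with normexp on capped background). Cd14, the lipopolysaccharide co-receptor, stood at -1.13, -2.42, -2.17 and -2.05 at 2 h and at 0.92, 0.53, -0.39 and 0.24 at 4 h. Its rise was 2.27 ± 0.29. The lectin receptors Clec4e and Clec7a rose by 2.25 ± 0.30 and 1.23 ± 0.24, and Trem1, an activating receptor of myeloid cells, by 1.91 ± 0.26. Tlr2, a receptor of bacterial lipoproteins, continued upward by 0.70 ± 0.12. Of 17 measured inflammatory caspases and inflammasome genes, 5 rose and 1 fell, where 1 had risen by 2 h. Casp4, which senses intracellular lipopolysaccharide, rose from -0.58, -0.69, -0.39 and -0.14 at 2 h to 1.14, 0.82, 0.54 and 0.72 at 4 h, by 1.25 ± 0.23, while the change of Casp1, 0.40 ± 0.18, was not called. Mefv (pyrin) and Nlrp3, sensors that build inflammasomes, rose by 1.29 ± 0.23 and 1.21 ± 0.32. The rise of Nlrp3 was not called without replicate 2 at 4 h (1.04), replicate 3 at 2 h (0.98) or replicate 4 at 2 h (1.00). Pycard, their adaptor, changed by -0.46 ± 0.15, and was not called without replicate 1 at 2 h (-0.38), replicate 4 at 2 h (-0.43), or replicate 2 (-0.47), 3 (-0.46) or 4 (-0.31) at 4 h. Of 39 measured interferon-stimulated genes, 12 rose and 0 fell, beside 16.0% of all genes rising, but 2 rose in the fit of the 8 arrays alone and 6 without replicate 2 at 4 h. The membrane proteins Ifitm1, Ifitm3 and Ifitm2 rose by 1.59 ± 0.16, 0.78 ± 0.17 and 0.65 ± 0.15, and Ifit1 by 0.72 ± 0.19.

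Some markers of cells other than thymocytes rose in the same interval, read beside the 16.0% of all genes that rose and the 4.95% that fell. Of 20 macrophage markers 6 rose and 1 fell, and their summed level was 69.3 to 92.4 at 2 h and 97.1 to 156 at 4 h. Of 18 dendritic cell markers 8 rose and 0 fell (42.7 to 61 against 58.5 to 97.5), and of 20 neutrophil markers 7 rose and 0 fell (50.5 to 105 against 69.7 to 142). Of 16 thymic epithelium markers 4 rose, with sums of 39.8 to 66.9 and 62.4 to 93.4. The keratins Krt8 and Krt18, filament proteins of that epithelium, rose by 1.23 ± 0.23 and 1.18 ± 0.23. Of 9 adipocyte markers 3 rose (1.74 to 3.26 against 4.02 to 5.99), with Fabp4, a fatty acid carrier, up by 1.23 ± 0.33 and Lpl, lipoprotein lipase, by 1.02 ± 0.26. The shares of fibroblast and B cell markers that rose were not above that of all genes. Of 19 fibroblast and endothelial markers 3 rose and 0 fell (132 to 237 against 166 to 208). Of 14 B cell markers 1 rose and 1 fell (8.45 to 11.7 against 9.31 to 10.8). The erythroid list had only 7 measured markers, of which 2 rose (23.7 to 51.7 against 28.3 to 64.2). The neutrophil and sensing lists share genes, among them Clec4e and Trem1. No measured marker of these lists was below background on all 8 arrays. More cells of a type and more RNA per cell cannot be told apart in these pools, and the part of such cells in the rises above was not tested. Thymocyte stage markers are read beside the 21.0% of all genes that were called. Of 20 double positive markers 2 rose and 1 fell, of 21 single positive markers 4 rose and 1 fell, and of 14 double negative markers 1 rose and 0 fell. With the array median as centre, 0 of the double positive markers rose and 12 fell.

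**Figure D3:**
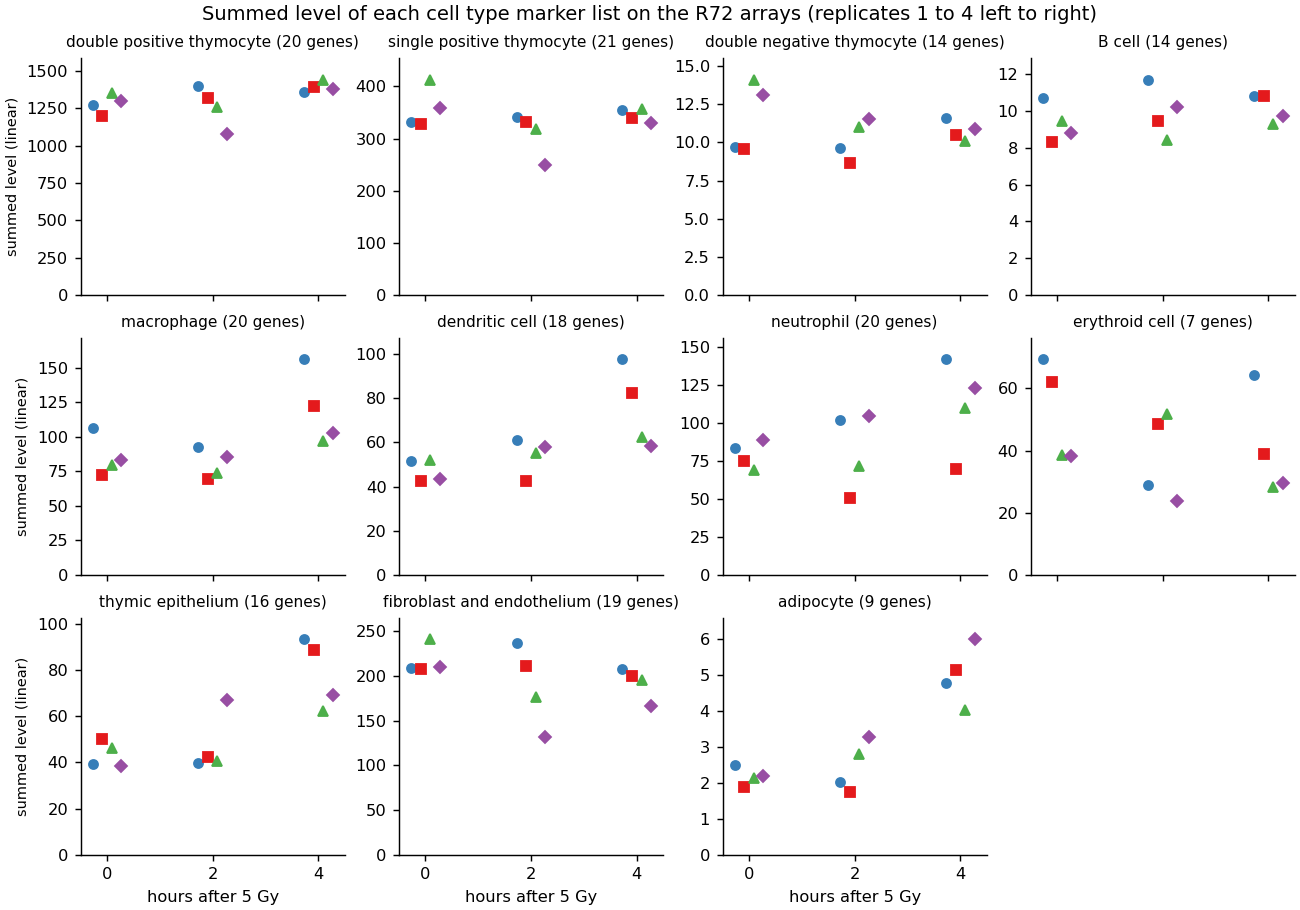
Summed level (linear, relative to each array's 75th percentile) of the markers of 11 cell types on each R72 array at 0, 2 and 4 h, replicates 1 to 4 from left to right. The macrophage sums of 97.1 to 156 at 4 h lie above those at 2 h, as do the adipocyte sums, while the dendritic cell, neutrophil, thymic epithelium, fibroblast and endothelium, B cell, erythroid and thymocyte sums overlap between 2 h and 4 h.

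DNA replication genes fell after 2 h, and nearly the whole list took part. Of 46 measured G1/S and replication genes, 40 fell and 0 rose, against 4.95% falling among all genes. Of these 40, 29 started and 11 continued. The list's median lay 0.72 below that of all genes and stayed below it in every alternative run, between -0.986 and -0.49. Ccne2, the cyclin E2 that opens S phase, stood at -1.88, -1.64, -0.86 and 0.71 at 2 h and at -3.04, -3.06, -2.53 and -2.14 at 4 h. The groups did not overlap, although replicate 4 at 2 h was well above the rest, and the change was -1.77 ± 0.40. Pcna, the sliding clamp of DNA polymerases, stood at 6.34, 6.23, 6.27 and 6.49 at 2 h and at 5.49, 5.30, 5.21 and 5.41 at 4 h. It changed by -0.19 ± 0.10 in the first step, which was not called, and by -0.98 ± 0.10 in the next, to 0.506 of its 2 h level. Pold2, a subunit of DNA polymerase delta, changed by -1.07 ± 0.17. Cdc6, which loads the replicative helicase, changed by -0.95 ± 0.12, Lig1, the ligase of Okazaki fragments, by -0.92 ± 0.12, and Rfc4, a subunit of the clamp loader, by -0.84 ± 0.11. Helicase subunits were already falling: Mcm6 changed by -0.61 ± 0.15 and then -0.92 ± 0.15, and Mcm2 by -0.68 ± 0.11 and then -0.51 ± 0.11. E2f1, a driver of this programme, changed by -0.77 ± 0.11 after 2 h. Dscc1, a component of a clamp loader used in cohesion, changed by -1.01 ± 0.21, and Hells, a chromatin remodeller, by -0.85 ± 0.11.

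Promoters of the replication genes with the largest falls among the RefSeq entries used are given for the CCAAT box and the E2F core TTTNNCGC. Matches are marked in capitals on either strand. Of the 43 genes of the replication and mitosis lists that fell, 36 had an entry that was used, with the same chromosome left out. Pold2 has 2 starts in the table, and the upstream one is shown.
Pold2 (chr11:5878207-5878506, minus strand): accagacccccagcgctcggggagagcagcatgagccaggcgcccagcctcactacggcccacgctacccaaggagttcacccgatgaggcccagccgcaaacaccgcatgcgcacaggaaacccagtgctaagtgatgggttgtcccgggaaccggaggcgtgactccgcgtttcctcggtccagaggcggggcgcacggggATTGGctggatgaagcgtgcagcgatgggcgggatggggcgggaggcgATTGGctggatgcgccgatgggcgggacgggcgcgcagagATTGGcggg
Pcna (chr2:132253131-132253430, minus strand): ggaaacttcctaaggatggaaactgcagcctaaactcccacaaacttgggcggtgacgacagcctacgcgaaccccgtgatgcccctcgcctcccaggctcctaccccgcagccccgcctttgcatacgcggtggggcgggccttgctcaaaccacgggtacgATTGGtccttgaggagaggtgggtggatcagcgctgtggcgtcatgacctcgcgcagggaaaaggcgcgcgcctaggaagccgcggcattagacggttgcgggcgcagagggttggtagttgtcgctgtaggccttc
The Pold2 promoter held 3 CCAAT matches on the reverse strand, of which the one before the start begins 47 bases upstream. The Pcna promoter held 1 on the reverse strand, 87 bases before the start, and neither shown window held the letters of the E2F core. Of the 36 genes with an entry that was used, 20 (55.6%) held a CCAAT match and 13 (36.1%) an E2F core match. The shares of all genes in the table were 41.1% and 5.93%.

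Mitosis genes took another course. Of 47 measured G2/M genes, 28 had fallen by 2 h and 0 had risen, beside 6.79% and 6.24% of all genes. After 2 h, 4 rose and 3 fell, beside 16.0% and 4.95% of all genes. Of the 28 early falls, 24 were not followed by a called change, beside 81.1% of all genes down at 2 h. The 4 that rose were all reversals. Pttg1 (securin, which restrains separase) stood at 3.76, 4.20, 4.09 and 4.22 untreated, at 3.26, 3.29, 3.25 and 3.25 at 2 h, and at 3.91, 3.81, 3.70 and 3.47 at 4 h. Its 4 h values lay above all 2 h values and partly among the untreated ones, a rise of 0.46 ± 0.11. Cenpa, the histone variant of centromeres, rose by 0.58 ± 0.16 after a first step of -0.90 ± 0.16, and Aurka, a spindle kinase, by 0.37 ± 0.12 after -1.02 ± 0.12. Cenpa was not called without replicate 2 at 4 h (0.51) or replicate 4 at 2 h (0.50). Aurka was not called without replicate 1 (0.28) or 2 (0.33) at 4 h or replicate 3 (0.36) or 4 (0.37) at 2 h. Pimreg, which is outside the list and is induced in proliferating cells, rose by 0.71 ± 0.13 after -0.89 ± 0.13. Ccnb1, the mitotic cyclin B1, changed by -1.91 ± 0.18 in the first step and by 0.41 ± 0.18 in the next, the latter not called, though it was without replicate 4 at 4 h (0.57). The kinetochore subunits Spc24 and Spc25 started downward, with changes of -0.65 ± 0.12 and -0.58 ± 0.16, and Spc25 was not called without replicate 4 at 2 h (-0.41). With the array median as centre 0 of the 47 rose and 23 fell, so the direction of the mitosis list after 2 h depends on the scaling.

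**Figure D4:**
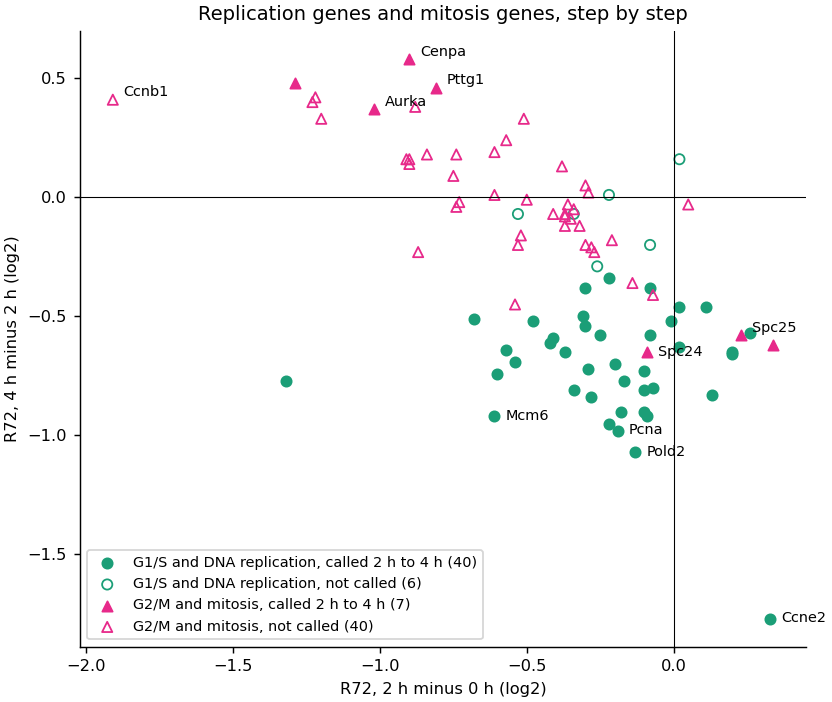
Change from 2 h to 4 h (vertical axis, log2) against the change from 0 h to 2 h (horizontal axis, log2) for the replication genes (circles, 40 of 46 called after 2 h) and the mitosis genes (triangles, 7 of 47 called after 2 h), filled where the 2 h to 4 h change was called. The called replication genes all lie below 0 on the vertical axis, and Cenpa, Pttg1 and Aurka lie above it at negative values on the horizontal axis.

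Genes of DNA break signalling and repair fell beside the replication genes. Of 39 measured members, 17 fell and 1 rose after 2 h, beside 4.95% and 16.0% of all genes. The list's median lay 0.40 below that of all genes. Parp1, a sensor of strand breaks, stood at 1.94, 1.89, 1.83 and 2.09 at 2 h and at 1.39, 1.26, 1.35 and 1.5 at 4 h. The 4 h values lay below all 2 h values, and the change was -0.56 ± 0.07 after a first step of -0.22 ± 0.07 that was not called. Rad51c, which acts in homologous recombination, changed by -0.95 ± 0.14 after 0.08 ± 0.14. Rad51b, which acts in the same pathway, went the other way: it changed by -0.40 ± 0.12 by 2 h and rose by 0.71 ± 0.12 after it.

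Some biosynthetic genes also fell. Of 24 measured genes of folate, serine and one-carbon metabolism, 12 fell and 1 rose after 2 h, beside 4.95% and 16.0% of all genes. Of the 12 that fell, 7 fell in both steps. Shmt1, the cytosolic serine hydroxymethyltransferase, stood at -0.94, -0.66, -0.68 and -0.30 untreated, at -1.98, -2.66, -2.25 and -1.64 at 2 h, and at -3.45, -3.43, -3.63 and -3.18 at 4 h. Each time lay below the one before on all arrays, and the steps were -1.49 ± 0.20 and -1.29 ± 0.20. Its mitochondrial counterpart Shmt2 changed by -1.03 ± 0.09 and then -0.52 ± 0.09. Mthfd1, a folate enzyme, changed by 0.30 ± 0.15 and then fell (-0.86 ± 0.15), and Dctpp1, a nucleotide phosphatase, changed by -0.75 ± 0.14 and then -0.84 ± 0.14. Of 32 measured genes of Myc, ribosome biogenesis and growth, 10 fell, 1 rose and 21 were not called, read beside the same shares. By 2 h, 17 had fallen, beside 6.79% of all genes. Myc itself changed by -1.20 ± 0.33 and then by -0.04 ± 0.33, the latter not called. Cad, the enzyme that begins pyrimidine synthesis, and Nolc1, a nucleolar chaperone, continued down with changes of -0.57 ± 0.10 and -0.55 ± 0.10. Mxd1, an antagonist of Myc, was the member that rose, by 0.72 ± 0.13. Tpi1, a glycolytic enzyme, changed by -0.86 ± 0.12 and then -0.84 ± 0.12. Ampd1, an AMP deaminase, started downward with a change of -1.20 ± 0.13. Bcat1, a transaminase of branched-chain amino acids, changed by -2.20 ± 0.42 and then -1.38 ± 0.42, was well above background on 1 of 4 arrays at 4 h, and was not called without replicate 1 (-1.21) or 4 (-1.30) at 4 h or replicate 3 (-1.32) or 4 (-1.04) at 2 h. Its sign turned under normexp, at 0.32.

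Many p53 target genes had risen by 2 h, and after it some rose and some fell. Of 22 measured targets in apoptosis, 14 had risen by 2 h, beside 6.24% of all genes. After it 2 rose and 4 fell, beside 16.0% and 4.95% of all genes. Of the 14, 11 were not called after 2 h, 2 fell back and 1 rose again, beside 67.1%, 6.7% and 26.2% of all genes up at 2 h. With the array median as centre, 13 of the 22 were called down after 2 h and 0 up. Bbc3 stood at 3.16, 3.31, 3.13 and 3.12 untreated, at 6.52, 6.50, 6.58 and 6.43 at 2 h, and at 6.49, 6.56, 6.27 and 6.60 at 4 h. The 2 h and 4 h values overlapped, and the change was -0.03 ± 0.09 after 3.33 ± 0.09. Bax changed by 0.06 ± 0.11 after 2.21 ± 0.11, Pmaip1 (Noxa) by -0.16 ± 0.19 after 2.72 ± 0.19, and Fas, a death receptor, by -0.10 ± 0.09 after 0.83 ± 0.09. Aen, an apoptotic exonuclease, fell back from 3.39, 3.36, 3.52 and 3.55 at 2 h to 3.14, 2.84, 3.23 and 2.97 at 4 h, a change of -0.41 ± 0.10 after 2.73 ± 0.10. Apaf1, the core of the apoptosome, changed by -0.44 ± 0.14 after 2.34 ± 0.14, a call that was lost without replicate 1 (-0.40), 2 (-0.42) or 3 (-0.44) at 4 h or replicate 3 (-0.43) or 4 (-0.32) at 2 h. Zmat3, an RNA-binding target, went on rising by 0.74 ± 0.15. Bid and Siva1, which promote apoptosis, fell with changes of -0.73 ± 0.10 and -0.71 ± 0.12.

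Of 28 measured targets in cell cycle arrest, repair and feedback, 13 had risen by 2 h, beside 6.24% of all genes. After it 5 rose and 4 fell, beside 16.0% and 4.95% of all genes. Centring on the array median gave 2 rises and 17 falls. Cdkn1a stood at 0.92, 0.49, 0.59 and 0.71 at 2 h and at 1.5, 1.33, 0.35 and 0.95 at 4 h, a change of 0.35 ± 0.24 that was not called, after 3.33 ± 0.24. Mdm2 changed by 0.85 ± 0.12 and then by -0.20 ± 0.12, not called, though without replicate 4 at 2 h the change was -0.33 with an adjusted p of 0.0453 in limma. Phlda3, an inhibitor of Akt, changed by 5.01 ± 0.10 and then by -0.28 ± 0.10. That step was not called (adjusted p = 0.0589 in limma), but it was called with the replicate number as a block (adjusted p = 0.0335 in limma), and without replicate 1 at 4 h (-0.33) or replicate 4 at 2 h (-0.35). Ccng1 (cyclin G1) changed by 2.60 ± 0.11 and then by -0.31 ± 0.11, called only without replicate 1 at 4 h (-0.38) or replicate 3 at 2 h (-0.36) among the arrays left out in turn, and Plk2, a stress-induced kinase, by 4.02 ± 0.28 and then -0.15 ± 0.28. Ppm1d, the phosphatase Wip1 that switches off damage signalling, fell back with a change of -0.38 ± 0.07 after 1.35 ± 0.07. Psrc1, a microtubule-binding protein, went on rising by 0.54 ± 0.12. Gadd45g and Gadd45b, stress sensors, started after 2 h and rose by 1.52 ± 0.13 and 1.22 ± 0.16. Of 19 measured targets in metabolism and secretion, 10 had risen by 2 h. After it 5 rose and 3 fell (1 and 7 with the array median as centre), read beside the same shares of all genes. Of those 10, 5 were not called after 2 h. Slc19a2, a thiamine transporter of this group, turned back with a change of -0.62 ± 0.11 after 1.69 ± 0.11. Gls2, a glutaminase, started upward by 1.11 ± 0.15, Lpin1, a phosphatidate phosphatase, changed by 0.98 ± 0.07 and then -0.26 ± 0.07 (not called without replicate 2 at 4 h, -0.22, or replicate 3 at 2 h, -0.25), and Gdf15, a secreted stress hormone, by 3.74 ± 0.27 and then 0.49 ± 0.27, not called. Trp53 itself changed by -0.26 ± 0.17 and 0.40 ± 0.17, neither of them called, though the later one was without replicate 2 at 2 h (0.53).

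**Figure D5:**
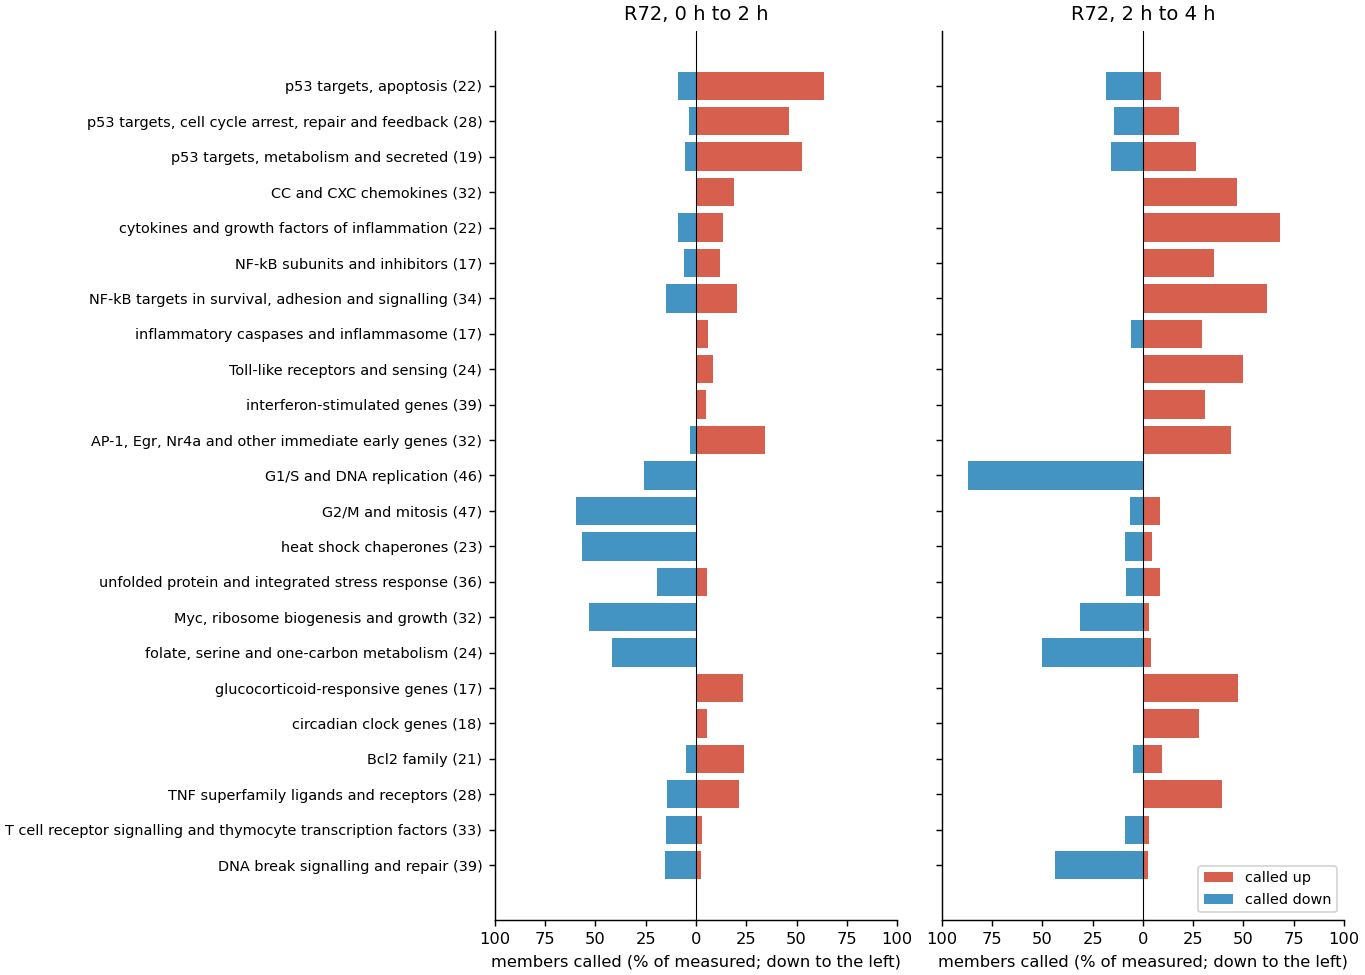
Share of the measured members (count in parentheses) of 23 gene groups called up (right) or down (left) in R72 thymocytes, from 0 h to 2 h (left panel) and from 2 h to 4 h (right panel), in percent. Of the p53 target groups, 14 of 22, 13 of 28 and 10 of 19 members are called up in the left panel, while the cytokines (15 of 22) and NF-kB targets (21 of 34) are called up and the G1/S group (40 of 46) is called down in the right panel.

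Most of the 151 reversing genes lay outside these groups. Kank3, an actin regulator, stood at -1.62, -1.45, -1.44 and -1.40 untreated, at 1.13, 1.06, 1.26 and 1.23 at 2 h, and at 0.56, 0.49, 0.51 and 0.39 at 4 h. The 4 h values lay below all 2 h values and above all untreated values, and the change was -0.68 ± 0.12 (adjusted p = 0.000978 in limma). Dyrk3, a kinase that dissolves stress granules, changed by 1.88 ± 0.20 and then -0.83 ± 0.20. Lhx2, a homeodomain factor, changed by 0.75 ± 0.23 and then -1.09 ± 0.23, and E2f7, a repressor of the E2F family, by 0.68 ± 0.13 and then -0.62 ± 0.13. Calhm2 and Ikbip changed by -0.61 ± 0.13 and -0.61 ± 0.12 after rises of 1.18 ± 0.13 and 0.76 ± 0.12. In the other direction, Syt13, of the synaptotagmin family, stood at 3.69, 3.56, 3.21 and 3.37 at 2 h and at 4.45, 4.76, 4.78 and 4.69 at 4 h, a rise of 1.21 ± 0.15 after -0.52 ± 0.15. Elovl6, a fatty acid elongase, rose by 1.00 ± 0.10 after -0.41 ± 0.10, and Mfsd2a, a lipid transporter, by 0.93 ± 0.21 after -0.86 ± 0.21.

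Hormone-responsive, stress and T cell genes gave further calls, read beside the 16.0% of all genes that rose and the 4.95% that fell. The heat shock, unfolded protein, Bcl2 family and T cell lists had smaller shares called than the 21.0% of all genes. Of 17 measured glucocorticoid-responsive genes, 8 rose and 0 fell (5 and 3 with the array median as centre). Tgm2, transglutaminase 2, started at 4 h with a rise of 2.00 ± 0.22, and the metallothioneins Mt2 and Mt1 continued with rises of 1.85 ± 0.15 and 1.60 ± 0.20. Cebpd, a bZIP factor of the acute phase, rose by 1.30 ± 0.18. Of 18 measured clock genes 5 rose and 0 fell (3 and 6 with the array median as centre), among them Bhlhe40 by 1.12 ± 0.17, Per2 by 1.04 ± 0.24 and Nfil3 by 0.63 ± 0.13. Hmox1, haem oxygenase 1, rose by 1.31 ± 0.22, Adm, a vasoactive peptide, by 2.42 ± 0.23, and Thbs1, a matrix glycoprotein, by 2.49 ± 0.56. The Thbs1 probe was well above background on 3 of 4 arrays at 2 h, where its values ran from -5.86 to -3.40. Of 23 heat shock chaperones, 13 had fallen by 2 h, beside 6.79% of all genes. After it Hsp90aa1 and Hsp90ab1 fell further (-0.48 ± 0.12 and -0.30 ± 0.09) while Bag3, a co-chaperone, rose by 0.64 ± 0.17. Bag3 was not called without replicate 2 at 4 h (0.50), and Hsp90ab1 was not called without replicate 1 (-0.25) or 3 (-0.28) at 2 h or replicate 2 (-0.27) or 3 (-0.27) at 4 h. Of 36 genes of the unfolded protein and integrated stress response, 3 rose and 3 fell (2 and 20 with the array median as centre). Eif2ak3, the kinase PERK, stood at 2.36, 2.54, 2.57 and 2.55 at 2 h and at 3.64, 3.75, 4.29 and 4.29 at 4 h, a rise of 1.49 ± 0.15. Of 21 Bcl2 family members 2 rose and 1 fell. Of 33 genes of T cell receptor signalling and thymocyte factors, 1 rose and 3 fell. Runx3, a factor of T cell lineage choice, turned upward by 0.66 ± 0.15 after -0.45 ± 0.15, while Gata3 changed by -0.37 ± 0.09, Themis by -0.48 ± 0.13 and Tox by -0.63 ± 0.21. Themis was not called without replicate 2 at 4 h (-0.43). Tox was not called without replicate 1 (-0.49) or 2 (-0.56) at 4 h or replicate 3 (-0.55) or 4 (-0.43) at 2 h. Cd4 and Cd8b1, the co-receptors, rose by 0.46 ± 0.16 and 0.50 ± 0.15, but neither call held without replicate 4 at 2 h, where Cd4 changed by 0.22 and Cd8b1 by 0.35. Cd4 was also not called without replicate 1 (0.45), 2 (0.46) or 3 (0.43) at 4 h or replicate 3 at 2 h (0.49), nor Cd8b1 without replicate 2 (0.47) or 3 (0.46) at 4 h or replicate 3 at 2 h (0.50). With the authors' value table Cd8b1 changed by -0.16. Other genes that started downward were Zfp704 (-1.31 ± 0.17), a zinc finger gene, and others that continued down were Il17rb, the interleukin-25 receptor subunit (-1.04 ± 0.10), Syce2, of the synaptonemal complex (-1.10 ± 0.15), and Gfra1, a GDNF co-receptor (-1.51 ± 0.24). Klf15, a factor induced by glucocorticoids, was at least 3.03-fold lower at 4 h, where it was not well above background on any array, and it was so on 2 of 4 arrays at 2 h. Gfra1 and Klf15 were dim and changed sign under normexp, at 0.49 and 0.64, and under normexp with capped background, at 0.09 and 0.22.

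The same interval in P72 thymocytes gave 4411 rises (21.5% of those tested) and 2196 falls (10.7%). The difference of the 2 h to 4 h change between R72 and P72 was called for 0 of 20552 genes (0%) in limma, and 694 genes (3.38%) had an unadjusted p under 0.05. It was called for 0 genes in every alternative in which it could be fitted. For Ifi202b the P72 change was 4.24 and the R72 change 4.66, a difference of 0.41 ± 0.73. For Ccl2 the changes were 2.20 and 1.87, a difference of -0.33 ± 0.42. For Cxcl1 they were 3.92 and 2.58, and the difference of -1.33 ± 0.49 had an unadjusted p of 0.0139 and an adjusted p of 1 in limma. Pcna changed by -1.13 in P72 and -0.98 in R72, a difference of 0.15 ± 0.14, and Bbc3 by -0.10 and -0.03, a difference of 0.08 ± 0.12. A difference that was not called does not show that the genotypes act alike.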

How the data were processed

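Each array read Cy3-labelled RNA of thymocytes on an Agilent whole mouse genome array. The intensity values, per the file headers, were made by the authors with Agilent Feature Extraction 9.5.3.1 (9.5.3 in the submitters' processing notes), which subtracted background; probe positions are those of build mm7. The authors' deposited value table holds log2 values whose normalization is not given in the sources used here, and it served as an alternative. Here log2 of the processed signal was taken relative to each array's 75th percentile. Control spots (1639) were left out, and outlier-flagged values (0.223%) were set missing. Genes were kept where a probe was well above background on at least 4 of 32 arrays, the probe with the highest mean standing for a gene. Probe names were updated by accession through a RefSeq table (GRCm38.p6): 22951 of 41174 probes matched.

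The 24 P72 and R72 arrays were fitted together with limma 3.58.1 in R 4.3.3 (lmFit and eBayes, group means, no block), with Benjamini-Hochberg adjustment over all genes at 0.05. The fit was tested on simulated data. The number of arrays limits the precision. Deviations of same-numbered 2 h and 4 h arrays had correlations of 0.26, 0.53, 0.26 and 0.52, and those of unlike number ran from -0.41 to 0.20. Replicates 2 and 4, with the higher values, had their 2 h and 4 h arrays on the same slide. Those slides also held the 4 h arrays of replicates 1 and 3. The correlations of these with the 2 h array on their slide were -0.09 and -0.01. The 2 h and 4 h arrays of replicates 1 and 3 lay on different slides. The parts of pairing by number and of the slide were not tested. The numbers come from the titles, and the main fit used no pairing. "At least" folds set the group mean against the higher of the lowest measurable signal and the dim probe's own value on each array. Alternatives were other background corrections, scalings, filters, blocks and sets of arrays, and leaving out each array.

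The members and gene lists were chosen with earlier results of these data known. The genes named were a fixed set of p53, inflammation and cell cycle genes, the largest called changes without overlap in each class and over all classes, and the members of each list with the smallest p. No list was tested as a set. Results of a few genes are not reported here.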

Additional observations from a re-analysis of the deposited data

Results flagged for a closer look

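For 17 of the 282 gene and time combinations examined (141 named genes at 2 h and 4 h), 1 array lay far from the other 3 of its group, with a gap to its nearest neighbour above 0.829 of the group's range. Chance gives such a gap in about 1 group in 20.

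On replicate 4 at 2 h, Ccl7 stood at -2.12, with the others between -2.55 and -2.53. Egr1 stood at 3.09 there, against 2.55 to 2.61. Mfsd2a stood at -4.02 there, against -4.63 to -4.57. Klf6 stood at 2.82 there, against 2.93 to 2.95. Mxd1 stood at 2.18 there, against 2.41 to 2.45. Themis stood at 2.80 there, against 2.06 to 2.18. Krt18 stood at 3.73 there, against 3.20 to 3.24. On replicate 4 at 4 h, Fas stood at 4.98, with the others between 4.65 and 4.70. E2f1 stood at -1.55 there, against -1.22 to -1.18. Cad stood at 0.66 there, against 0.87 to 0.88. On replicate 3 at 4 h, Plk2 stood at -1.27, with the others between -0.80 and -0.77. Fos stood at -1.81 there, against -1.60 to -1.59. Mxd1 stood at 2.81 there, against 3.14 to 3.19. On replicate 1 at 2 h, Ifi202b stood at -5.55, with the others between -4.65 and -4.47. Eif2ak3 stood at 2.36 there, against 2.54 to 2.57. On replicate 2 at 2 h, Pimreg stood at 1.12, with the others at 1.03. Pttg1 stood at 3.29 there, against 3.25 to 3.26. The call of Ifi202b was not lost when any 1 of the 8 arrays was left out. Replicate 4 at 2 h, which gave the most such values, is also the array with the highest 75th percentile.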

How the results depend on the processing

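The main counts were 3298 rises and 1017 falls from 2 h to 4 h, 2678 genes called from 0 h to 2 h, and 3629 starting, 535 continuing and 151 reversing genes. They moved by over 1.5 times as follows, and the cause was not tested except where fewer arrays or genes entered. Normexp gave 210 rises, 192 falls, 355 early calls, and 360 starting, 18 continuing and 24 reversing genes. Normexp with capped background, chosen after seeing the data, gave 5991 rises, 1417 early calls, and 6872 starting and 277 continuing genes. Quantile normalization gave 1811 rises and 344 continuing genes. The array median as centre gave 1877 rises, 7842 falls, and 7904 starting and 1625 continuing genes. The authors' value table gave 1585 rises, and 2406 starting and 292 continuing genes. With no filter 307 genes continued and 96 reversed. With genes well above background on all 24 arrays 1628 rose and 2059 started. Slide as a fixed block gave 1651 falls and 309 reversing genes, and as a random block 1526 falls, 888 continuing and 256 reversing genes. Scan date as a block gave 1835 falls, 859 continuing and 344 reversing genes. The 12 R72 arrays alone gave 494 falls, 1350 early calls, 252 continuing and 60 reversing genes, and the 8 arrays alone 1402 rises and 223 falls. Leaving out 1 array gave 1672 to 3864 rises, 537 to 1177 falls, 1623 to 3076 early calls, and 1826 to 4522 starting, 298 to 563 continuing and 85 to 220 reversing genes. The replicate block gave 3665 rises and 1311 falls and changed no other call among the named genes than that of Phlda3 (adjusted p = 0.0335 in limma).

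Signs turned for Gfra1 (0.49 under normexp, 0.09 with capped background), Klf15 (0.64 and 0.22), Bcat1 (0.32 under normexp) and Cd8b1 (-0.16 in the authors' value table). With the sign kept, 43 of the 141 named genes lost their call under normexp and 31 in the fit of the 8 arrays alone. With the array median as centre 19 lost it and 7 gained one. The replication list's median stayed below that of all genes, and those of the chemokines (0.328 to 1.432), cytokines (0.335 to 0.818) and NF-kB targets (0.251 to 0.768) above it, in all 24 settings that gave a value. The interferon-stimulated list's median fell below it under normexp (-0.061) and within slide 6 (-0.048). The dim genes are limited by signal over background, since 50.3% of the rises and 97% of the falls were in genes well above background on all 8 arrays.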

Other observations

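The series holds 1 array each at 2 h and 4 h of p53+/+ and of p53-/- mice, C57Bl/6, 6 weeks old and given the same dose, which allow values of the 2 h to 4 h change with no replicate and no test. For Ifi202b the change was 4.84 in p53+/+ and 1.46 in p53-/-. F3 changed by 3.97 and 1.83, Pdk4 by 2.51 and 0.00, Atf3 by 2.03 and 0.68, and Eif2ak3 by 1.80 and 0.24. Syt13, which reversed upward in R72, changed by 1.40 and -0.48. The chemokines were divided: Cxcl1 changed by 3.77 in p53+/+ and 6.04 in p53-/-, Ccl2 by 2.05 and 4.37, and Ccl7 by 1.57 and 3.83, whereas Cxcl2 changed by 1.78 and 0.12, Ccl4 by 1.78 and 0.51, Ccl24 by 3.02 and 1.74, and Ccl3 by 1.79 and 1.27. Il1b changed by 3.18 and 2.58. The replication genes had negative values in both, with Pcna at -1.05 and -0.56, Mcm6 at -1.18 and -0.72, and Ccne2 at -1.08 and -0.75, and so had Shmt1, at -2.02 and -1.41. Each of these values rests on 2 arrays, and the difference between the genotypes was not tested. The p53+/+ arrays at 2 h and 4 h lay on slide 7 and the p53-/- ones on slide 8, so genotype and slide cannot be told apart. The share of probes well above background went from 56.8% at 2 h to 68.6% at 4 h in p53+/+. In p53-/- it went from 67.7% to 65.7%, and this unequal depth bears on dim genes such as F3, Pdk4 and Cxcl2.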
